A study of Mus musculus with 9 samples.

Results

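C-type lectin receptors of myeloid cells were followed in a line of mouse acute myeloid leukaemia with and without the doxycycline that drives an inducible FLT3-ITD oncogene. The receptors described were the 9 genes of a fixed list: Clec12a, Clec4a1, Clec4a2, Clec4a3, Clec4d, Clec4e, Clec4n, Clec5a and Clec7a. They are 9 of the 24756 gene symbols of the deposited count table and all 9 were found in it. The receptors were chosen by how they changed in these libraries, so their changes and calls below are a description and are given with no p-value. Of the 9, 6 had enough counts to be tested, among 10215 genes tested in all. Clec4a1, Clec4a3 and Clec4n had too few counts.

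All groups are the same line, made from murine foetal liver cells with a pair of retroviral vectors. One vector, always on, makes luciferase (Luc2) and MLL-AF9, the oncogenic fusion of a histone methyltransferase with a transcription elongation protein. The other places FLT3-ITD, a cytokine receptor kinase made constitutively active by an internal duplication, behind the doxycycline-responsive TRE-tight promoter with the fluorescent protein DsRED. The ON group stayed in 1 µg/mL doxycycline, and the OFF24 and OFF48 groups were washed and grown 24 h and 48 h without it. MLL-AF9 and both vectors are thus present in every group, the OFF groups differ from ON in drug as well as in transgene, and no group lacks the vectors. Each group has 3 libraries, and the labels do not name separate cultures for them. The p-values therefore rest on the spread among these libraries, part or all of which may be technical. In bulk RNA, fewer cells of a type and less RNA per cell cannot be told apart.

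C-type lectin receptors are surface proteins that bind sugars, lipids or proteins of microbes and of dying cells, and myeloid cells use them to decide between attack and restraint. Activating members signal through an ITAM, a short tyrosine motif that is phosphorylated and recruits the kinase Syk. Dectin-1 (Clec7a) carries a one-sided version of this motif in its own tail, whereas Mincle (Clec4e), MCL (Clec4d), Dectin-2 (Clec4n) and MDL-1 (Clec5a) borrow it from adaptor proteins. Syk then feeds the Card9, Bcl10 and Malt1 complex, which switches on NF-kB. Inhibitory members, among them MICL (Clec12a, also called CLL-1) and DCIR (Clec4a2), carry an ITIM instead, which recruits phosphatases that oppose Syk.

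All 9 genes lie on chromosome 6 in mm10 (GRCm38, GENCODE M21 annotation), and 8 of them lie in 2 clusters. The first cluster spans 368.0 kb from 122921848 to 123289870 and holds, in order, Clec4a1, Clec4a3, Clec4a4, Clec4b1, Clec4a2, Clec4b2, Clec4n, Clec4d and Clec4e. The second spans 130.1 kb from 129342691 to 129472779, with Clec12a at one end, Clec7a at the other and Clec12b, Clec1b, Clec9a and Clec1a between them. Clec5a stands alone at 40574894 to 40585821 on the minus strand. GENCODE M21 types Clec7a as a polymorphic pseudogene and the other 8 as protein coding.

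The start regions of 4 receptors are shown because these carry the contrast of the results, Clec12a and Clec4a2 being called higher and Clec4d and Clec4e lower at 48 h. Each is the plus or minus strand from 250 bases before to 50 after the RefSeq transcript start in GRCm38.p6, written 5′ to 3′. Capitals mark every match, on either strand, to the motifs named after them.
Clec12a, chr6:129349994-129350293, plus strand: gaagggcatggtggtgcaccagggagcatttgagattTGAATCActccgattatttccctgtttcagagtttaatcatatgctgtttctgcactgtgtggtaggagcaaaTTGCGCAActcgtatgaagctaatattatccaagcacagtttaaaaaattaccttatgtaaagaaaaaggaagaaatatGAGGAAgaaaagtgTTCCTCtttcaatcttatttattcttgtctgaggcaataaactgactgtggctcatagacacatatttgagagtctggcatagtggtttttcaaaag
Clec4a2, chr6:123122440-123122739, plus strand: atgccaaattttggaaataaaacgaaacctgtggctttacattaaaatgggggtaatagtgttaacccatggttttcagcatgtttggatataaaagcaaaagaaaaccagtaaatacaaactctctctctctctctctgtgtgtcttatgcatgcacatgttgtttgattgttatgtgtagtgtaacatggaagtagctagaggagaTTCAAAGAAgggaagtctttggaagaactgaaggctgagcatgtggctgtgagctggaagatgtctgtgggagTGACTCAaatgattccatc
Clec4d, chr6:123261857-123262156, plus strand: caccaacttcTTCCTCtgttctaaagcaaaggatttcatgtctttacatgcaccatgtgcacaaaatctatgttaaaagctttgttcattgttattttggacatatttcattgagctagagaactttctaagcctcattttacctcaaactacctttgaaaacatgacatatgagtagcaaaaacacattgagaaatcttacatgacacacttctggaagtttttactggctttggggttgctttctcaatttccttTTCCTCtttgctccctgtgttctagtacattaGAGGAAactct
Clec4e, chr6:123289822-123290121, minus strand: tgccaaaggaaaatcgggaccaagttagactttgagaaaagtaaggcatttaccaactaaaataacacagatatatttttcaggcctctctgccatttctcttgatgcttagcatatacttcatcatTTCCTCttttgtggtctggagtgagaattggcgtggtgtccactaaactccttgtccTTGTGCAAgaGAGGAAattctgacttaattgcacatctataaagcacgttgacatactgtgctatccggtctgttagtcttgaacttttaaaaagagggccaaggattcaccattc

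The motifs were the PU box of the myeloid factor PU.1 (GAGGAA), the C/EBP pair (TTGCNNAA and the palindrome TTGCGCAA, every match to which is also a match to the first), the STAT site (TTCNNNGAA) and the AP-1 site (TGANTCA). RefSeq start regions were at hand for 8 of the 9 receptors, and for Clec4n none is shown. The PU box was found in 7 of these 8, all but Clec4a2, and in 28.3% of 32851 mouse start regions of the same 300 bases. The first count is over genes and the second over start regions. Clec4a3 has 2 start regions, of which 1 holds the PU box. Clec7a also has 2, which overlap and both hold the PU box. In Clec12a it lies 61 and 47 bases upstream of the start, and in Clec4e 123 and 56 bases upstream. Clec4d has it 240 bases upstream and 7 and 39 bases downstream.

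The C/EBP palindrome, held by 0.183% of all start regions, was found in Clec12a alone among the 8, 140 bases upstream. The looser C/EBP pattern, held by 10.8%, was found in Clec12a and, 66 bases upstream, in Clec4e. The STAT pattern (8.3% of start regions) was found in Clec4a2, 42 bases upstream, and the AP-1 pattern (7.81%) in Clec12a, 213 bases upstream, and Clec4a2, 31 bases downstream. These are matches of letters, and binding was not measured. The RefSeq starts of Clec12a and Clec4a2 lie inside longer genes of the GENCODE annotation.

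The shallowest library, OFF48 replicate 2, held 1329296 counts and the deepest, ON replicate 2, held 4038456, with scaling factors from 0.988 to 1.013. Levels are CPM (read counts scaled to library size) after TMM scaling, given per library for replicates 1 to 3 and as the mean ± SD over n = 3. A count of 0 in a library allows up to 3 counts, between 0.735 and 2.24 CPM by library, and this covers counting error only. Log2 fold changes come from edgeR's quasi-likelihood fit with an approximate standard error (SE), and "called" means a Benjamini-Hochberg adjusted p below 0.05 over all 10215 tested genes. The libraries read transcript 3′ ends, and levels of the receptors are compared between groups for a gene, not between genes. Marker sums add the CPM of several genes and describe the cells only roughly.

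The mouse Flt3 gene had 2 to 10 counts a library and was not tested. It does not check the transgene, whose transcript would end in vector sequence, so loss of FLT3-ITD was not measured in these counts. The cells carried myeloid markers in all groups: 12 of 12 myeloid markers were tested, and their summed level lay between 2690 and 3010 CPM in the ON libraries, 5230 and 5420 CPM in OFF24, and 8500 and 10000 CPM in OFF48. Of these 12, 9 rose at 24 h and 10 at 48 h, and 0 fell, where 17.8% and 23.4% of all tested genes rose and 17.4% and 23.9% fell. The part of this shift in the receptor changes below was not tested. Lymphoid markers summed to 0.747 to 4.58 CPM in any library, with Cd8a and Ncr1 among those at 0 counts. Erythroid markers reached 0.254 to 1.56 CPM with Hbb-bs, Hbb-bt, Epor and Alas2 at 0, and hepatocyte and stromal markers 0.747 to 7.27 CPM with Alb and Ttr at 0. Of 12 dendritic markers 3 could be tested, with sums of 148 to 151, 197 to 219 and 167 to 171 CPM in ON, OFF24 and OFF48 and Cd209a at 0. Most of that sum is Tcf4, a transcription factor also of other cells, with means of 119, 182 and 162 CPM. Tcf4 rose at 24 h (log2 0.62 ± 0.1, edgeR adjusted p = 8.06e-05) and at 48 h (0.45 ± 0.1, adjusted p = 0.00113). The other 2 tested, named like Tcf4 after their values were seen, fell at 48 h: Bst2 (log2 -2.07 ± 0.26, edgeR adjusted p = 3.12e-06) and H2-Ab1 (-2.18 ± 0.37, adjusted p = 6.68e-05). Of 12 markers of mature macrophages 2 could be tested, and both were called higher at 24 h and at 48 h. Their list summed to 11.3 to 16.3, 27.5 to 37.1 and 52.8 to 70.1 CPM, with Cd5l, C1qb, C1qc, Marco, Timd4 and Clec4f at 0. Of 11 markers of megakaryocytes, mast cells and basophils 2 could be tested, and Gp1ba, Cpa3, Fcer1a, Tpsb2 and Cma1 were at 0. This list summed to 17.1 to 21.1, 26.9 to 30 and 11.2 to 19.5 CPM. The 2 tested, also named after their values were seen, moved in opposite directions. Mcpt8 rose at 24 h (log2 1.55 ± 0.25, edgeR adjusted p = 8.44e-05) and 48 h (0.82 ± 0.28, adjusted p = 0.0198). Gata2 was not called at 24 h (-0.41) and fell at 48 h (-1.76 ± 0.4, edgeR adjusted p = 0.00116).

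The receptors did not move as a block. At 24 h, Clec12a, Clec4a2 and Clec7a were called higher and Clec5a lower, where 17.8% of all tested genes were called higher and 17.4% lower. At 48 h against ON, the same 3 were called higher and Clec4d and Clec4e lower, where 23.4% and 23.9% of all tested genes were. Between 24 h and 48 h, Clec12a and Clec4a2 were called higher and Clec4d and Clec4e lower, against 9.99% and 11.2% of all tested genes. The median log2 fold change of the 6 tested receptors was 0.75 at 24 h and 0.62 at 48 h, beside 0.03 and 0.01 for all tested genes. The rule that chose the receptors used these contrasts, so nothing is read from the counts. Both OFF groups were compared with the same ON libraries.

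**Figure D1:**
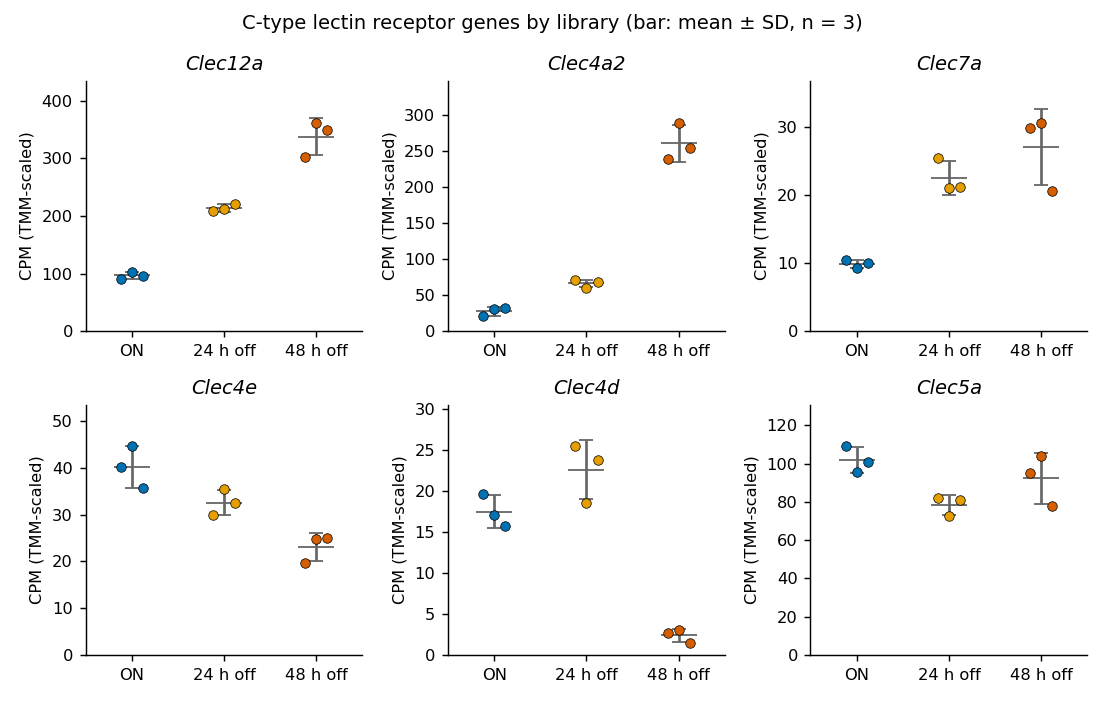
Normalised read counts (CPM, vertical axis starting at 0, own scale in each panel) of the 6 tested receptors in each library of ON, OFF24 and OFF48. Points are libraries and bars the mean ± SD of 3 libraries. Clec12a, Clec4a2 and Clec7a sit above ON in every OFF library, and Clec4d drops below 3 CPM at 48 h.

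Clec12a encodes MICL, an inhibitory receptor of granulocytes and monocytes that recognises uric acid crystals and dampens responses to dead cells. It lies on the plus strand at 129342691 to 129365303. Its level was 91.3, 103 and 96 CPM in ON, 208, 212 and 221 CPM in OFF24 and 302, 362 and 350 CPM in OFF48. The groups did not overlap and stood in the order ON, OFF24, OFF48. Their means were 96.6 ± 5.69, 214 ± 6.69 and 338 ± 31.5 CPM. Against ON, its log2 fold change was 1.15 ± 0.10 (SE) at 24 h, or 2.21-fold, and 1.80 ± 0.11 at 48 h, or 3.49-fold. From 24 h to 48 h it gained a further 0.66 ± 0.10.

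Clec4a2 encodes DCIR, the ITIM-bearing receptor of dendritic cells, monocytes and neutrophils. It lies on the plus strand at 123106428 to 123143999. Its level was 20.6, 31.1 and 31.8 CPM in ON, 70.4, 60.1 and 68 CPM in OFF24 and 239, 289 and 254 CPM in OFF48. Again no library of one group reached another group, and most of the change came in the second day. The means were 27.8 ± 6.26, 66.2 ± 5.41 and 261 ± 25.9 CPM. Its log2 fold change was 1.26 ± 0.15 at 24 h (2.39-fold), 3.23 ± 0.15 at 48 h (9.38-fold, the largest fold of the 6 tested receptors against ON) and 1.97 ± 0.13 between the times (3.93-fold).

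The level of Clec4a2 is uncertain in one respect, since it has close copies in the same cluster. Within the last 400 bases of its 5 transcripts, where 3′ reads fall, the closest match to Clec4a4 was 96.9% over 224 bases. The closest to Clec4b1 was 98.5% over 67. The last 400 bases of Clec4b1, in turn, match Clec4a2 at 96.2% over all 400, but those of Clec4a4 match it at 78.5% over 349. A processed pseudogene, Gm44132, lies within Clec4a2 on the same strand. How reads that map to several places were counted is not given in the sources used here. Clec4a4 held 7, 8 and 34 counts in ON, OFF24 and OFF48, and Clec4b1 held 36, 112 and 328, beside 297, 590 and 1974 for Clec4a2. Counted together, the 3 genes had log2 fold changes of 1.33 at 24 h and 3.27 at 48 h. The other 8 receptors share no such stretch, at 95% identity or more, with another gene.

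The other DCIR-family genes among the 9 had few or no counts. Clec4a1, known as DCIR4, had 0 counts in all 3 ON and all 3 OFF48 libraries and 0, 1 and 6 counts in OFF24. Clec4a3, known as DCIR3, had 0 counts in all 9 libraries. For a gene at 0 in a whole group, the 3 counts allowed over that group correspond to 0.277 CPM for ON, 0.335 for OFF24 and 0.386 for OFF48. Both genes sit upstream of Clec4a2 in the first cluster, at 122921848 to 122934619 and 122952515 to 122969875 on the plus strand.

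Clec7a encodes Dectin-1, the receptor for the fungal cell wall sugar beta-glucan. It lies on the minus strand at 129461591 to 129472779. Its level was 10.4, 9.31 and 9.99 CPM in ON, 25.4, 21 and 21.1 CPM in OFF24 and 29.8, 30.6 and 20.6 CPM in OFF48. Every OFF library exceeded every ON library, whereas OFF24 and OFF48 overlapped. The means were 9.91 ± 0.565, 22.5 ± 2.54 and 27 ± 5.54 CPM. On the log2 scale the change was 1.17 ± 0.20 at 24 h (2.25-fold) and 1.41 ± 0.20 at 48 h (2.65-fold), and the further 0.24 ± 0.18 between the times was not called.

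Clec4e encodes Mincle, which binds the mycobacterial glycolipid trehalose dimycolate and the self protein SAP130, and signals through the FcR gamma chain. It lies on the minus strand at 123281789 to 123289870. Its level was 40.2, 44.6 and 35.7 CPM in ON, 30, 35.4 and 32.4 CPM in OFF24 and 19.7, 24.7 and 25 CPM in OFF48. The highest OFF24 library was just below the lowest ON library, and OFF48 lay below both. The means were 40.1 ± 4.44, 32.6 ± 2.68 and 23.1 ± 2.95 CPM. At 24 h its log2 fold change, -0.30 ± 0.14, was not called, and at 48 h the value of -0.81 ± 0.15 (1.76-fold lower) was. The difference between the times, -0.51 ± 0.16, was called with all 9 libraries and was not without OFF24 replicate 2 (log2 -0.43), OFF24 replicate 3 (-0.50) or OFF48 replicate 1 (-0.38), nor with DESeq2 (-0.50).

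Clec4d encodes MCL, the partner of Mincle, and lies 6.5 kb from it at 123262111 to 123275265 on the plus strand. Its level was 19.6, 17.1 and 15.7 CPM in ON, 25.4, 18.5 and 23.8 CPM in OFF24 and 2.68, 2.99 and 1.45 CPM in OFF48. ON and OFF24 overlapped, and the 3 OFF48 libraries lay far below both, with 8, 4 and 5 counts beside 44 to 80 counts in the other libraries. The means were 17.5 ± 1.96, 22.5 ± 3.63 and 2.37 ± 0.812 CPM. Its value at 24 h, a log2 fold change of 0.35 ± 0.18, was not called. At 48 h it was -2.98 ± 0.30 against ON, 7.87-fold lower, and -3.33 ± 0.29 against OFF24, 10-fold lower. With only 17 counts over the 3 OFF48 libraries, both SEs at 48 h are smaller than counting error alone would give.

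Clec4n encodes Dectin-2, a receptor for fungal mannans that also uses the FcR gamma chain, at 123229843 to 123247021 on the plus strand beside Clec4d. It had 12, 4 and 8 counts in ON, 0, 2 and 3 in OFF24 and 6, 1 and 1 in OFF48, too few for a test. The mean was 2.3 ± 1.14 CPM for the ON libraries, 0.506 ± 0.457 for OFF24 and 1.02 ± 0.889 for OFF48. OFF48 overlapped both other groups, and the lowest ON library, at 0.98 CPM, was above the highest OFF24 library, at 0.891 CPM, by less than the value of a read in either.

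Clec5a encodes MDL-1, a receptor of neutrophils and macrophages that pairs with the adaptors Tyrobp (DAP12) and Hcst (DAP10). Its level was 109, 95.8 and 101 CPM in ON, 82.1, 72.6 and 81.1 CPM in OFF24 and 95, 104 and 77.9 CPM in OFF48. OFF24 lay below ON, and OFF48 overlapped both. The means were 102 ± 6.45, 78.6 ± 5.21 and 92.3 ± 13.2 CPM. Its log2 fold change at 24 h, -0.37 ± 0.12, was called, but not without ON replicate 1 (-0.34) or OFF24 replicate 2 (-0.33). That at 48 h, -0.16 ± 0.12, and that between the times, 0.21 ± 0.12, were not called.

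**Figure D2:**
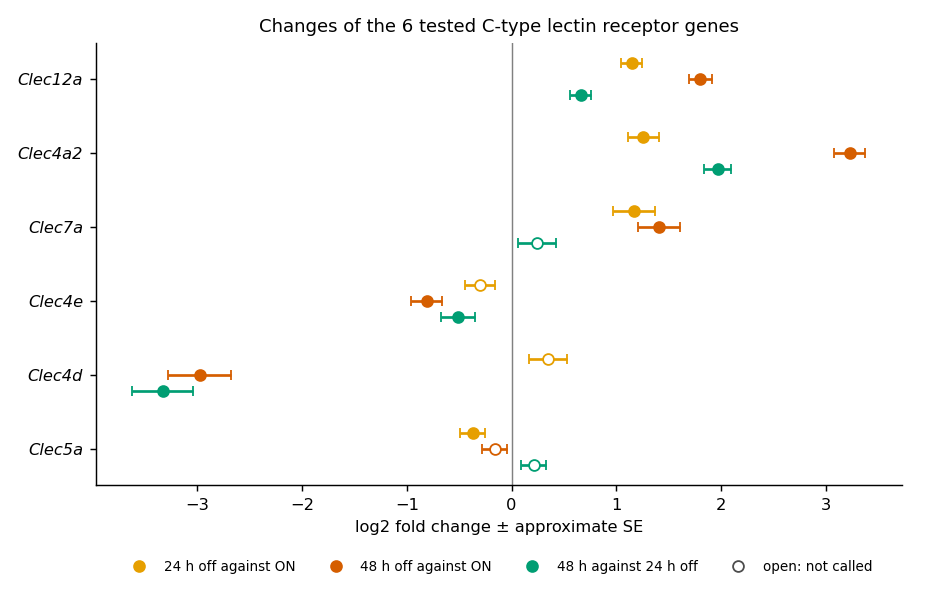
Log2 fold changes (horizontal axis) of the 6 tested receptors for OFF24 against ON, OFF48 against ON and OFF48 against OFF24, with bars of 1 approximate SE. Filled points are called and open points are not. Clec4a2 reaches 3.23 and Clec4d -2.98 at 48 h against ON, while Clec5a stays within 0.37 of no change.

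Neighbours within the first cluster thus had unlike patterns. Clec4a2 was 9.38-fold higher at 48 h and Clec4d 7.87-fold lower, with Clec4b2 (1, 2 and 5 counts in ON, OFF24 and OFF48) and Clec4n between them. Clec4b1, next to Clec4a2 on its other side and sharing 3′ sequence with it, rose by a log2 of 1.91 ± 0.31 at 24 h (edgeR adjusted p = 8.64e-05) and 3.61 ± 0.26 at 48 h (edgeR adjusted p = 1.62e-09). In the second cluster the outer genes, Clec12a and Clec7a, were both higher in the OFF groups. Between them, Clec12b had 0 counts, Clec1b 3, 18 and 7, Clec9a 0, 2 and 2, and Clec1a 0, 1 and 0 in ON, OFF24 and OFF48.

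**Figure D3:**
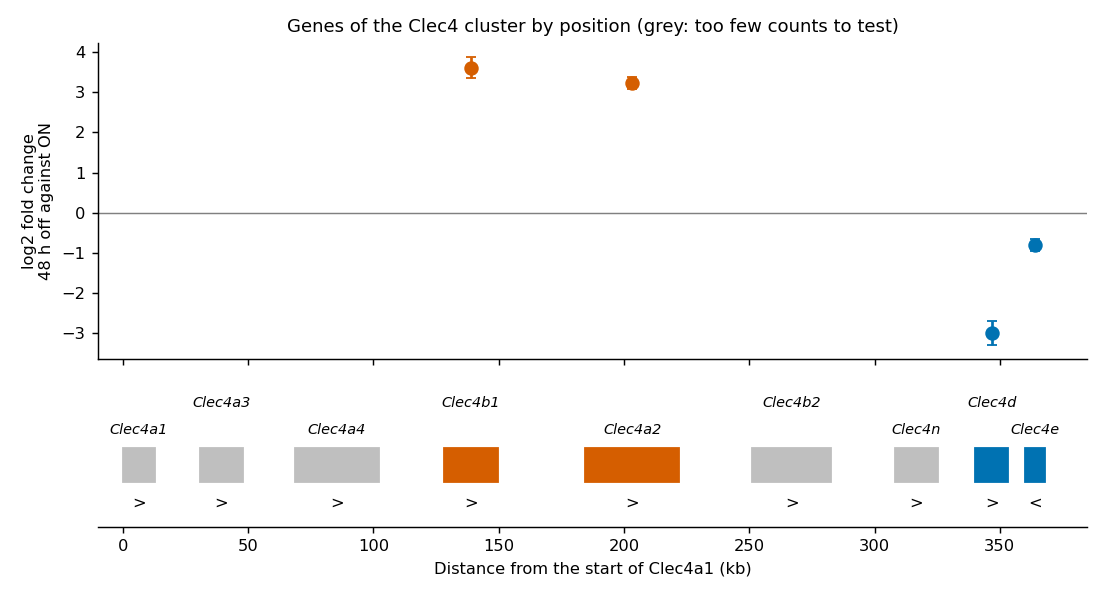
Log2 fold change at 48 h against ON (upper panel, vertical axis, bars of 1 approximate SE) above a map of the first cluster, with genes drawn to scale by distance from the start of Clec4a1 (kb, horizontal axis) and arrowheads for the strand. Clec4b1 and Clec4a2 (orange) lie at 3.61 and 3.23, Clec4d and Clec4e (blue) at -2.98 and -0.81, and the 5 grey genes had too few counts to test.

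Across the 9 libraries, the log2 levels of Clec4a2 and Clec12a had a Pearson r of 0.96, those of Clec7a and Clec12a 0.93 and those of Clec4e and Clec4d 0.78. Clec4e and Clec4a2 had an r of -0.92, and Clec5a had r between -0.43 and 0.11 with the other 5. These describe 9 libraries that share 3 group means, and carry no test.

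Among 7922 other tested genes with a mean of at least 10 CPM, the pattern most like each receptor was looked up by the same r. For Clec12a these were Dock10 (r = 0.998), a guanine nucleotide exchange factor, and Prkcb (0.996), a protein kinase C. Clec4a2 was most like the long non-coding RNA B230208H11Rik (0.997) and Camp (0.993), the cathelicidin of neutrophil granules, whose mean level was 201, 656 and 5150 CPM in ON, OFF24 and OFF48. Clec4d was most like S100a4 (0.991), a calcium-binding protein with mean levels of 29.4, 39.2 and 2.26 CPM, and Vim (0.985), the intermediate filament vimentin, with 320, 407 and 134 CPM. S100a4 overlaps another annotated gene, Gm42674, and shares its 3′ end, so its reads could be split. Dock10 and Prkcb overlap other annotated genes too, and the 3′ end of B230208H11Rik matches another gene.

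The genes nearest to the other 3 receptors were Uaca (0.989) and Ninj1 (0.974), a protein of membrane rupture, for Clec4e, and Rcc2 (0.951) and Traip (0.946), a ubiquitin ligase of DNA replication, for Clec5a. For Clec7a they were Ppp1r12a (0.992), a myosin phosphatase subunit, and Pbxip1 (0.986). Uaca and Rcc2 overlap other annotated genes, and the 3′ end of Rcc2 matches another gene.

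The signalling chain beneath the receptors was not used to choose them and was tested. Its gene lists were, however, drawn up with earlier results of these data known. Apart from the partners named whatever their result, genes were named for their smallest p at 48 h against ON. The p-values of those genes are thus not independent of the choice. Card9, Cebpb, Plcg2, Map3k7, Ppp3ca, Ubash3b, Cbl, Fcgr2b, Gfi1 and Runx1 overlap other annotated genes in part, to which reads could belong. All p-values that follow are edgeR quasi-likelihood values adjusted over all tested genes. The 3 adaptors that lend receptors a signalling motif all rose at both times. Of all tested genes, 17.8% rose at 24 h and 23.4% at 48 h. Fcer1g, the FcR gamma chain used by Mincle, MCL and Dectin-2, was at 245, 236 and 274 CPM in ON, 352, 314 and 294 CPM in OFF24 and 411, 357 and 388 CPM in OFF48. Every OFF library was above every ON library. The log2 fold change was 0.34 ± 0.10 at 24 h (edgeR adjusted p = 0.0147) and 0.62 ± 0.10 at 48 h (adjusted p = 7.71e-05). The 24 h call was lost without ON replicate 1 (0.31), ON replicate 2 (0.28) or OFF24 replicate 1 (0.26).

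Tyrobp, the DAP12 adaptor of MDL-1, went from 206, 233 and 208 CPM in ON to 297, 319 and 303 CPM in OFF24 and 460, 437 and 491 CPM in OFF48. The groups were fully apart. The log2 fold change was 0.51 ± 0.10 at 24 h (edgeR adjusted p = 0.000538) and 1.10 ± 0.10 at 48 h (adjusted p = 2.92e-08). Hcst, the DAP10 adaptor, went from 41.2, 42.6 and 52.1 CPM to 85.4, 104 and 82 CPM and then 166, 185 and 210 CPM, again with no overlap. Its log2 fold change was 1.01 ± 0.13 at 24 h (edgeR adjusted p = 1.23e-05) and 2.06 ± 0.13 at 48 h (adjusted p = 3.95e-10). The adaptors of Mincle, MCL and MDL-1 thus rose at 48 h while Clec4e and Clec4d were lower and Clec5a was not called.

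Of 16 listed proximal kinases and adaptors, 11 were tested. At 24 h 4 rose and 0 fell, and at 48 h 7 rose and 0 fell. Over all tested genes, 17.8% rose and 17.4% fell at 24 h, and 23.4% rose and 23.9% fell at 48 h. The median log2 fold change of the 11 was 0.2 and 0.63, beside 0.03 and 0.01 for all tested genes. Syk, the kinase that reads the phosphorylated ITAM, was at 52.6, 63.2 and 60 CPM in ON, 61.7, 81.4 and 76.3 CPM in OFF24 and 113, 109 and 124 CPM in OFF48. OFF24 overlapped ON, and OFF48 lay above both. At 48 h its log2 fold change was 0.99 ± 0.12 (edgeR adjusted p = 2.4e-06). At 24 h it was 0.33 ± 0.13 with an adjusted p of 0.0486, and 13 of 19 alternatives lost that call, with adjusted p from 0.0239 to 0.239 over all 19. Those that lost it include leaving out any library except ON replicate 2 and OFF24 replicate 1.

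Plcg2, the phospholipase downstream of Syk, rose at 48 h (log2 0.69 ± 0.14, edgeR adjusted p = 0.00062). At 24 h its value was -0.01 ± 0.15, not called. Prkcd, the protein kinase C that activates Card9, rose at both times, by a log2 of 0.75 ± 0.12 at 24 h (edgeR adjusted p = 8.39e-05) and 0.63 ± 0.12 at 48 h (adjusted p = 0.000297).

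**Figure D4:**
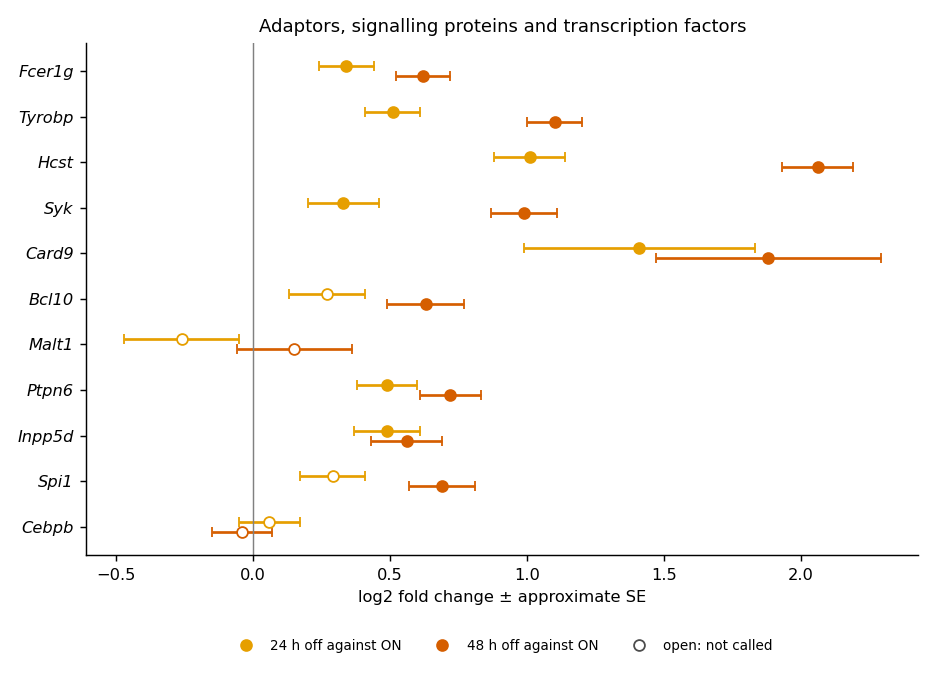
Log2 fold changes (horizontal axis, bars of 1 approximate SE) of adaptors, kinases, the Card9 complex, phosphatases and transcription factors at 24 h and 48 h against ON. Filled points passed an edgeR adjusted p of 0.05 and open points did not. Fcer1g, Tyrobp and Hcst lie above 0 at both times, and Malt1 and Cebpb have no filled point.

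Of 8 listed genes of the Card9 module 7 were tested. Of these, 1 rose and 1 fell at 24 h, and 2 rose and 1 fell at 48 h, shares near those of all tested genes (17.8% and 17.4% at 24 h, 23.4% and 23.9% at 48 h). The median log2 fold change was -0.1 and 0.15. Card9, the scaffold itself, was at 8.14, 3.67 and 4.64 CPM in ON, 10.4, 20.7 and 12.5 CPM in OFF24 and 24.1, 6.73 and 24.7 CPM in OFF48. OFF48 replicate 2, the shallowest library, fell within the ON range. The log2 fold change was 1.41 ± 0.42 at 24 h (edgeR adjusted p = 0.0213) and 1.88 ± 0.41 at 48 h (adjusted p = 0.00221). The 24 h call was lost without ON replicate 2 (1.13), ON replicate 3 (1.32) or OFF24 replicate 2 (1.04).

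Bcl10, which Card9 assembles into filaments, was not called at 24 h (0.27, edgeR adjusted p = 0.139) and rose at 48 h (log2 0.63 ± 0.14, adjusted p = 0.00111). Malt1, the protease of the complex, passed the test at neither time (-0.26 and 0.15). Map3k7, the kinase TAK1, fell by 0.42 on the log2 scale at 24 h (edgeR adjusted p = 0.0155) and by 0.33 at 48 h (adjusted p = 0.0446). Without OFF24 replicate 3 the 24 h call was lost (-0.34), and 9 of 19 alternatives lost the 48 h call. Tab2, its binding partner, was at -0.21 and -0.19, not called.

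Of 16 tested genes of the NF-kB and NFAT arms, 2 rose and 1 fell at 24 h, and 6 rose and 2 fell at 48 h, with medians of 0.09 and 0.21. The shares at 24 h lie below those of all tested genes, 17.8% and 17.4%, and at 48 h those were 23.4% and 23.9%. Nfkbia, the inhibitor of NF-kB and itself one of its targets, rose by a log2 of 0.63 ± 0.11 at 24 h (edgeR adjusted p = 0.000193) and 1.81 ± 0.11 at 48 h (adjusted p = 2.03e-10). The NF-kB subunits Rela (0.73 ± 0.12, adjusted p = 7.98e-05) and Rel (0.72 ± 0.18, adjusted p = 0.00313) rose at 48 h, and were at 0.18 and 0.25 at 24 h, not called. Ppp3ca, the calcineurin subunit that activates NFAT, rose at both times (0.51 ± 0.09, edgeR adjusted p = 0.000319, and 0.69 ± 0.09, adjusted p = 6.46e-06).

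Of 8 phosphatases and brakes that act on ITAM signalling, all tested, 4 rose and 2 fell at 24 h, and 5 rose and 1 fell at 48 h, beside 17.8% and 17.4%, then 23.4% and 23.9%, of all tested genes. The medians were 0.32 and 0.59. Ptpn6, the phosphatase SHP-1 recruited by ITIMs, went from a mean of 114 CPM to 161 at 24 h and 190 at 48 h. Its log2 fold change was 0.49 ± 0.11 (edgeR adjusted p = 0.00185) and 0.72 ± 0.11 (adjusted p = 2.92e-05). An antisense gene, Gm20531, overlaps it, and the strand setting of the counting is not given in the sources used here. Inpp5d, the lipid phosphatase SHIP-1, went from 72.4 to 101 and 108 CPM, with log2 fold changes of 0.49 ± 0.12 (edgeR adjusted p = 0.00485) and 0.56 ± 0.13 (adjusted p = 0.0011). Its 24 h call was lost without OFF24 replicate 2 (0.37), and its 3′ end holds a sequence found in 362 other genes. The ubiquitin ligase Cbl rose at both times (0.36 ± 0.10, edgeR adjusted p = 0.00799, and 0.61 ± 0.10, adjusted p = 4.76e-05). Its 3′ end matches other genes too. The phosphatase Ubash3b, which acts on Syk, rose at 48 h (0.84 ± 0.13, edgeR adjusted p = 3.79e-05) and was at 0.28 at 24 h, not called.

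Genes that lectin receptor signalling is known to induce in macrophages and dendritic cells were mostly too low, with 7 of 16 tested. Of these, 1 rose and 1 fell at 24 h, and 3 rose and 2 fell at 48 h. At 24 h these shares are close to the 17.8% and 17.4% of all tested genes, and at 48 h the latter were 23.4% and 23.9%. Cxcl2, a neutrophil chemokine, was at 2.03, 6.12 and 10.7 CPM in ON, 8.34, 8.76 and 8.02 CPM in OFF24 and 70.2, 80 and 110 CPM in OFF48. OFF48 stood far above both other groups, which overlapped. The log2 fold change at 48 h was 3.88 ± 0.31 (edgeR adjusted p = 4.07e-07).

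Ccl4, another chemokine, went the other way, from 28.5, 26.4 and 18.9 CPM in ON to 7.36, 3.74 and 6.4 CPM in OFF48 (log2 -1.99 ± 0.23, edgeR adjusted p = 1.06e-06). Egr1, an immediate early transcription factor, fell from 73.7, 69.3 and 84.2 CPM in ON to 18.3, 15.3 and 14.8 CPM in OFF24 (log2 -2.23 ± 0.24, edgeR adjusted p = 8.71e-06). At 48 h it stood at 27.8, 50.1 and 64.2 CPM (log2 -0.67 ± 0.21, adjusted p = 0.0188), a call lost without ON replicate 3 (-0.60) or OFF48 replicate 1 (-0.36). Il23a, a subunit of interleukin 23, had 1 to 39 counts a library, with the groups overlapping. Its call at 48 h (log2 1.84 ± 0.58, edgeR adjusted p = 0.0162) was lost in 5 of 19 alternatives, among them leaving out ON replicate 1 (1.57), ON replicate 2 (1.64) or OFF48 replicate 3 (1.10).

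Among 9 receptors that cooperate with the lectins, 8 were tested, and 5 rose and 1 fell at each time, where 17.8% and 17.4% of all tested genes did at 24 h and 23.4% and 23.9% at 48 h. Fcgr2b, the inhibitory Fc receptor, rose by a log2 of 0.87 ± 0.15 at 24 h (edgeR adjusted p = 0.000252) and 1.51 ± 0.15 at 48 h (adjusted p = 1.32e-07), though it shares 3′ sequence with Fcgr3. Itgam, the integrin chain CD11b, rose by 0.77 ± 0.16 (edgeR adjusted p = 0.00118) and 1.30 ± 0.16 (adjusted p = 3.37e-06). It is also one of the 12 myeloid markers, and another annotated gene, Gm49368, overlaps it and shares its 3′ end. Cd14, the lipopolysaccharide co-receptor, rose by 1.05 ± 0.20 (edgeR adjusted p = 0.000465) and 0.98 ± 0.21 (adjusted p = 0.000665). Tlr4, the lipopolysaccharide receptor, was the gene that fell (-0.62 ± 0.14, edgeR adjusted p = 0.0018, and -0.55 ± 0.14, adjusted p = 0.00338). Its 3′ end matches Gm37744.

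Of 44 other C-type lectins, 12 had enough counts. At 24 h 7 rose and 0 fell, and at 48 h 7 rose and 2 fell, with median log2 fold changes of 0.93 and 0.95 beside 0.03 and 0.01 for all tested genes. Of all tested genes, 17.8% rose and 17.4% fell at 24 h, and 23.4% and 23.9% at 48 h. Mgl2 and Clec10a, a pair of galactose-type lectins of macrophages, had moved in opposite directions by 48 h. Mgl2 went from 13.2, 15.7 and 12.5 CPM in ON to 33.3, 31.9 and 37.1 CPM in OFF24 and 82.3, 109 and 82 CPM in OFF48 (48 h log2 2.68 ± 0.16, edgeR adjusted p = 1.01e-10). Clec10a was at 33.1, 45.1 and 38.2 CPM in ON and 36.3, 31.9 and 37.1 CPM in OFF24. Its 24 h change was not called (log2 -0.15 ± 0.15, edgeR adjusted p = 0.482). In OFF48 it had fallen to 13, 13.5 and 9.3 CPM (log2 -1.75 ± 0.19, edgeR adjusted p = 3.33e-07). Their 3′ ends are 98.6% identical over 142 bases, so reads could be split between them. The 3′ end of Mgl2 also matches Gm28262, Gm46565 and Olfr54. Cd93, a lectin-like receptor of early progenitors, fell at 48 h (log2 -0.96 ± 0.11, edgeR adjusted p = 4.52e-07) and was at -0.04 at 24 h, not called.

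Of 13 myeloid transcription factors 10 were tested, with 6 rising and 0 falling at 24 h and 7 rising and 1 falling at 48 h, against 17.8% and 17.4%, then 23.4% and 23.9%, of all tested genes. The medians were 0.52 and 0.82. Spi1, which encodes PU.1, went from a mean of 170 CPM to 208 at 24 h and 277 at 48 h. At 48 h its log2 fold change was 0.69 ± 0.12 (edgeR adjusted p = 7.97e-05), and at 24 h 0.29, not called (adjusted p = 0.059), although 7 of 19 alternatives made that call. Cebpb, the factor that in macrophages drives Mincle expression, was at 324, 338 and 314 CPM and passed the test at neither time (0.06 and -0.04, edgeR adjusted p = 0.699 and 0.79).

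Cebpe, the C/EBP factor of granulocyte maturation, rose by a log2 of 0.47 ± 0.13 at 24 h (edgeR adjusted p = 0.00722) and 1.17 ± 0.13 at 48 h (adjusted p = 3.45e-07). The 24 h call was lost without ON replicate 1 (0.40) or OFF24 replicate 3 (0.35). Cebpd rose by 0.57 ± 0.11 (edgeR adjusted p = 0.000528) and 0.88 ± 0.11 (adjusted p = 2.36e-06), and overlaps the gene Spidr on the other strand. The granulocyte repressor Gfi1 rose by 0.60 ± 0.11 (edgeR adjusted p = 0.000242) and 1.04 ± 0.11 (adjusted p = 1.72e-07), and Runx1 by 0.95 ± 0.16 (adjusted p = 0.000165) and 1.35 ± 0.16 (adjusted p = 1.04e-06).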

How the data were processed

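RNA from 9 samples of 1 cell line was isolated in TriZol and on columns with DNase, and Lexogen QuantSeq 3′ kits gave the libraries, per the labels' protocols. The submitters' processing notes name the build mm10 and, with no roles, HISAT2 2.0.4, featureCounts, Subread 1.5.0-p3, cutadapt 1.5, FastQC 0.11.2, bcl2fastq 2.17.1.14, limma 3.42.2 and R 3.6.1. The sources used here do not give the annotation, strand setting, filters or handling of multi-mapping reads. The deposited count table holds whole-number counts per gene symbol, not normalised. The deposited second table holds log2 expression values, normalised with voom and limma per its name, and served as an alternative only.

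Groups and replicate numbers came from sample titles. The main test on these counts was run in edgeR 4.0.16 (R 4.3.3): filterByExpr by group, which kept 10215 of 24756 genes, TMM scaling, a robust quasi-likelihood fit with 1 mean per group on all 9 libraries (6 residual degrees of freedom, common biological coefficient of variation 0.105) and Benjamini-Hochberg adjustment at 0.05. The SE is the log2 fold change divided by the square root of the F statistic. No 2 libraries were identical, and within groups their counts gave a chi-square of 1.99 to 6.99 per degree of freedom, above sampling noise. The fitting code was tested on simulated data. Alternatives used other scalings, no filter, DESeq2 1.42.0, limma 3.58.1, a replicate block and leaving out each library.

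The receptors, gene lists and motifs were chosen with earlier results of these data known. Named beside the receptors were 11 partners (Fcer1g, Tyrobp, Hcst, Syk, Card9, Bcl10, Malt1, Ptpn6, Inpp5d, Spi1 and Cebpb) whatever their result, from each other list up to 4 tested genes with the smallest p at 48 h against ON, and for each receptor the 2 genes most alike by Pearson r of log2(CPM + 0.5). Of the genes this rule names, 1 is not reported here. Lectins of the same clusters were named for their position. Positions and 3′ ends came from GENCODE M21 and start regions from RefSeq, both on GRCm38. The authors' counting may have used other gene ends.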

Additional observations from a re-analysis of the deposited data

Results flagged for a closer look

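For 4 receptors, the 24 h and 48 h changes differed by the test of OFF48 against OFF24 itself. The ON libraries cancel out of that fold change, but they enter the shared estimate of the spread behind the calls. The log2 difference was 0.66 for Clec12a and 1.97 for Clec4a2, with every OFF48 library above every OFF24 library. It was -3.33 for Clec4d and -0.51 for Clec4e, with every OFF48 library below every OFF24 library. Of all tested genes, 9.99% were called higher and 11.2% lower in this comparison. The receptors were chosen with these results known, so the differences are given as a description.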

How the results depend on the processing

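Every tested receptor kept its direction under all 19 alternatives in all comparisons, with 336 values on the same side of the threshold and 6 that lost a call. The number of receptors called was 4 at 24 h, 5 at 48 h and 4 between the times, and was 3 to 6, 5 and 3 to 4 over the alternatives. With no filter on low counts, Clec4a1 and Clec4n were also called at 24 h (Clec4n log2 -1.98), and the authors' log2 table added Clec4n alone (-2.95). The calls that were lost were Clec5a at 24 h without ON replicate 1 (log2 -0.34) or OFF24 replicate 2 (-0.33), in 2 of 19 alternatives, and Clec4e between the times in 4 of 19, DESeq2 among them. Clec4a2 at 48 h ran from 3.05 to 3.33, Clec4d from -3.18 to -2.64 and Clec12a from 1.76 to 1.88 on the log2 scale. Leaving out each library gave 2848 to 3900 called genes at 24 h, 4179 to 4836 at 48 h and 1506 to 2409 between the times, against 3602, 4841 and 2161.

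The same alternatives were run for the other named genes after the data had been seen, as was counting Clec4a2 with its copies. Of these values 2069 kept their side, 55 lost a call, 25 gained one and 14 changed sign. The sign changes were all of values that were not called, before or after. With upper quartile scaling, Plcg2 at 24 h was at 0.04 and Tab2 between the times at -0.02, and Plcg2 was at 0 with limma-voom and with the authors' table. Leaving out each library gave -0.12 to 0.09 for Plcg2 at 24 h, -0.04 to 0.12 and -0.13 to 0.02 for Cebpb at 24 h and 48 h, and, between the times, -0.08 to 0.12 for Tab2, -0.16 to 0.05 for Cd14 and -0.06 to 0.21 for Tlr4. The cause was not tested.

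With the replicate number as a block, 4201, 5192 and 2701 genes were called, more than the 3602, 4841 and 2161 without it. The receptors called were 4, 5 and 4, as without the block. Same-numbered libraries deviated together with correlations of 0.074, 0.203 and 0.038 between OFF24 and ON, 0.116, 0.409 and 0.205 between OFF48 and ON, and 0.081, 0.178 and -0.011 between OFF48 and OFF24. Different-numbered libraries ran from -0.29 (OFF48 replicate 3 with ON replicate 2) to 0.192 (OFF48 replicate 1 with ON replicate 3). Of the same-numbered values only that of OFF48 replicate 3 with OFF24 replicate 3 (-0.011) was negative. OFF24 replicate 1, however, correlated better with ON replicate 3 (0.109) than with ON replicate 1 (0.074). The main test did not pair the samples by number, and correlations over 3 libraries a group cannot decide whether they are paired. Depth limits Clec4a1, Clec4a3 and Clec4n, whose counts were too few for the main test, and the OFF48 level of Clec4d.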
